A study of Homo sapiens with 20 samples.

Results

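The D-type cyclins and the genes that act beside them at the G1 checkpoint were followed in HL60 cells, a human promyelocytic leukemia cell line that differentiates towards neutrophils when given all-trans retinoic acid (ATRA). The 10 genes were CCND1, CCND2, CCND3, CCNE2, CDK4, CDK6, CDKN1B, CDKN2C, CDKN2D and RB1, taken by symbol from the 28051 named genes of the RNAseq data. All 10 were among the 13429 genes that passed a filter on low values. In the ATACseq data, 11 of 8286 deposited regions listed 1 of these genes, 1 at CCND1, 4 at CCND2, 5 at CCND3 and 1 at RB1. The genes were chosen with earlier results of these data known and with their differences between the genotypes in view, above all the change from CCND2 to CCND1. The RNA differences between genotypes are therefore described below without a test, whereas the responses to ATRA were tested gene by gene.

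Both genotypes were clonal HL60 lines. The Cas9 control line expressed the Cas9 nuclease, and the HK3-null line was made by lentiviral CRISPR against the gene of hexokinase 3. All libraries labelled HK3-null carry the same knockout label, so they stand for 1 line, and a difference between genotypes cannot be told apart from a difference between these lines. Cells received 1 µM ATRA or 0.01% DMSO, the diluent, for 36 h. There were 3 RNAseq replicates and 2 ATACseq replicates in each of the 4 groups, 12 and 8 libraries in all.

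D-type cyclins bind CDK4 or CDK6 in early G1, and the kinase then phosphorylates the retinoblastoma protein RB1, which releases E2F factors and lets the genes of DNA synthesis be transcribed. Cyclin E with CDK2 completes this phosphorylation. Inhibitors of the INK4 family (among them p18, the product of CDKN2C, and p19, the product of CDKN2D) bind CDK4 and CDK6, while p27, the product of CDKN1B, acts mainly on cyclin E and CDK2. Blood cells use all D-type cyclins, and terminal myeloid differentiation ends in a G1 arrest.

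The RNAseq values are normalized counts, that is, reads per gene scaled between libraries. They summed to 29056349 to 31549781 per library, from an estimated depth of 22700000 to 37000000 counts. The HL60 markers MPO, ELANE, AZU1, PRTN3, CD33 and SPI1 summed to 550073 to 824412 normalized counts per library, while the 3 T cell markers together reached 1 to 12. The 3 B cell markers together reached 46 to 61 in the DMSO libraries and 82 to 110 in the ATRA libraries, nearly all from CD79A, with MS4A1 at 0 in all 12. The sum of the ATRA response markers CD38, TGM2 and ITGAM was 33 to 38 in Cas9 control DMSO and 7167 to 8031 in Cas9 control ATRA. It was 509 to 573 in HK3-null DMSO and 38438 to 47867 in HK3-null ATRA, so both treated groups lay far above their own DMSO group. In DMSO the HK3-null libraries already lay above Cas9 control in CD38 and ITGAM, but not in TGM2 (4, 4 and 12 against 10, 1 and 2). Most of the sum in HK3-null ATRA came from TGM2, with 32339, 30084 and 39244 normalized counts against 801, 946 and 1393 in Cas9 control ATRA. HK3 RNA rose with ATRA in both genotypes. Its mean was 331 normalized counts in HK3-null and 86.7 in Cas9 control in DMSO, and 1548 and 1484 in ATRA, which is not lower under the knockout label. The paper checked its knockout clones in genomic DNA and, by mass spectrometry, in protein. These libraries measure neither, so the RNA level does not decide whether the knockout held. Replicate 1 of Cas9 control DMSO stood apart, where 16821 genes were above 0 (15090 to 15867 elsewhere), so results that rest on it are given with and without it.

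The genotypes differed in the levels of their D-type cyclins. CCND1 (chr11:69641156-69654474, GRCh38, plus strand), the D-type cyclin that is more typical of epithelial than of blood cells, had 266, 94 and 84 normalized counts in Cas9 control DMSO and 134, 81 and 64 in Cas9 control ATRA. In HK3-null it had 2567, 2443 and 1997 in DMSO and 1895, 1633 and 1382 in ATRA. Every HK3-null library lay above every Cas9 control library, and the mean was 15.8-fold higher in DMSO and 17.6-fold higher in ATRA. The log2 difference in DMSO was 4.17 with all libraries and 4.69 without replicate 1 of Cas9 control DMSO, whose value of 266 was the highest of the Cas9 control libraries. The 3 epithelial markers together had 10 to 45 normalized counts in every library of both genotypes.

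CCND2 (chr12:4269771-4305353, plus strand) had the opposite order. It reached 5509, 5314 and 4331 normalized counts in Cas9 control DMSO and 4294, 3665 and 2888 in Cas9 control ATRA. It had 138, 118 and 139 in HK3-null DMSO and 226, 221 and 199 in HK3-null ATRA, which left no overlap between any pair of the 4 groups. The HK3-null mean was 38.4-fold lower in DMSO and 16.8-fold lower in ATRA. By size of the log2 difference, CCND2 ranked 156 and CCND1 ranked 297 among the 13429 genes in DMSO.

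CCND3 (chr6:41934934-42050357, minus strand) was high in HK3-null as well. Its values were 1297, 1137 and 1057 normalized counts in Cas9 control DMSO and 1981, 1758 and 1780 in Cas9 control ATRA. They were 4341, 4105 and 3833 in HK3-null DMSO and 9666, 9578 and 9917 in HK3-null ATRA. The 4 groups did not overlap, and the HK3-null mean was 3.52-fold higher in DMSO and 5.28-fold higher in ATRA.

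Chromatin accessibility was measured by ATACseq. All deposited regions differed between the genotypes in ATRA, so a difference at these genes was set by the selection and is not read as a result. The regions with the largest differences at CCND2 and CCND3 are shown here. Their signals, given further on, had opposite orders between the genotypes, as the RNA did. Both lie upstream of the MANE Select transcript of their gene and overlap none of its exons. Both are from GRCh38, plus strand, 300 bases each, chr12:4272307-4272606 (the centre of the CCND2 region) and chr6:41967150-41967449 (the CCND3 region). Capitals mark matches on either strand to AP-1 (TGANTCA), C/EBP (TTGCNNAA), RUNX (TGTGGT) or PU.1 (GAGGAA) motifs.
CCND2 upstream region: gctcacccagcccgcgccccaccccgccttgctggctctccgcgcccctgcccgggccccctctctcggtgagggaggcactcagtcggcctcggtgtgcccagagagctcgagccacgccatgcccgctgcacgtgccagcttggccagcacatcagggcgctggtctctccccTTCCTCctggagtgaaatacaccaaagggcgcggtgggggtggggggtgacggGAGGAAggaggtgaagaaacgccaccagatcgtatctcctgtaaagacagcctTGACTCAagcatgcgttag
CCND3 upstream region: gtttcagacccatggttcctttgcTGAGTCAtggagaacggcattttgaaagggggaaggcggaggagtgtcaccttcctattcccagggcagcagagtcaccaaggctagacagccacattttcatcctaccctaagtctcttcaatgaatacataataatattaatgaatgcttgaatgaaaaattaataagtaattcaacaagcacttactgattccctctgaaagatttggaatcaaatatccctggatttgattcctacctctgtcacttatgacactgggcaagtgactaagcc
The CCND2 window holds 1 AP-1 match and 2 PU.1 matches, and the CCND3 window holds 1 AP-1 match near its left end. Over the 300-base centres of all 8286 regions, 18.1% hold an AP-1 match, 18.5% a C/EBP match, 30.2% a RUNX match and 42.9% a PU.1 match. The CCND2 window has a GC content of 66.3% and the CCND3 window of 42%, against a median of 50.3% over all. A match describes letters and was not tested as a site.

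**Figure D1:**
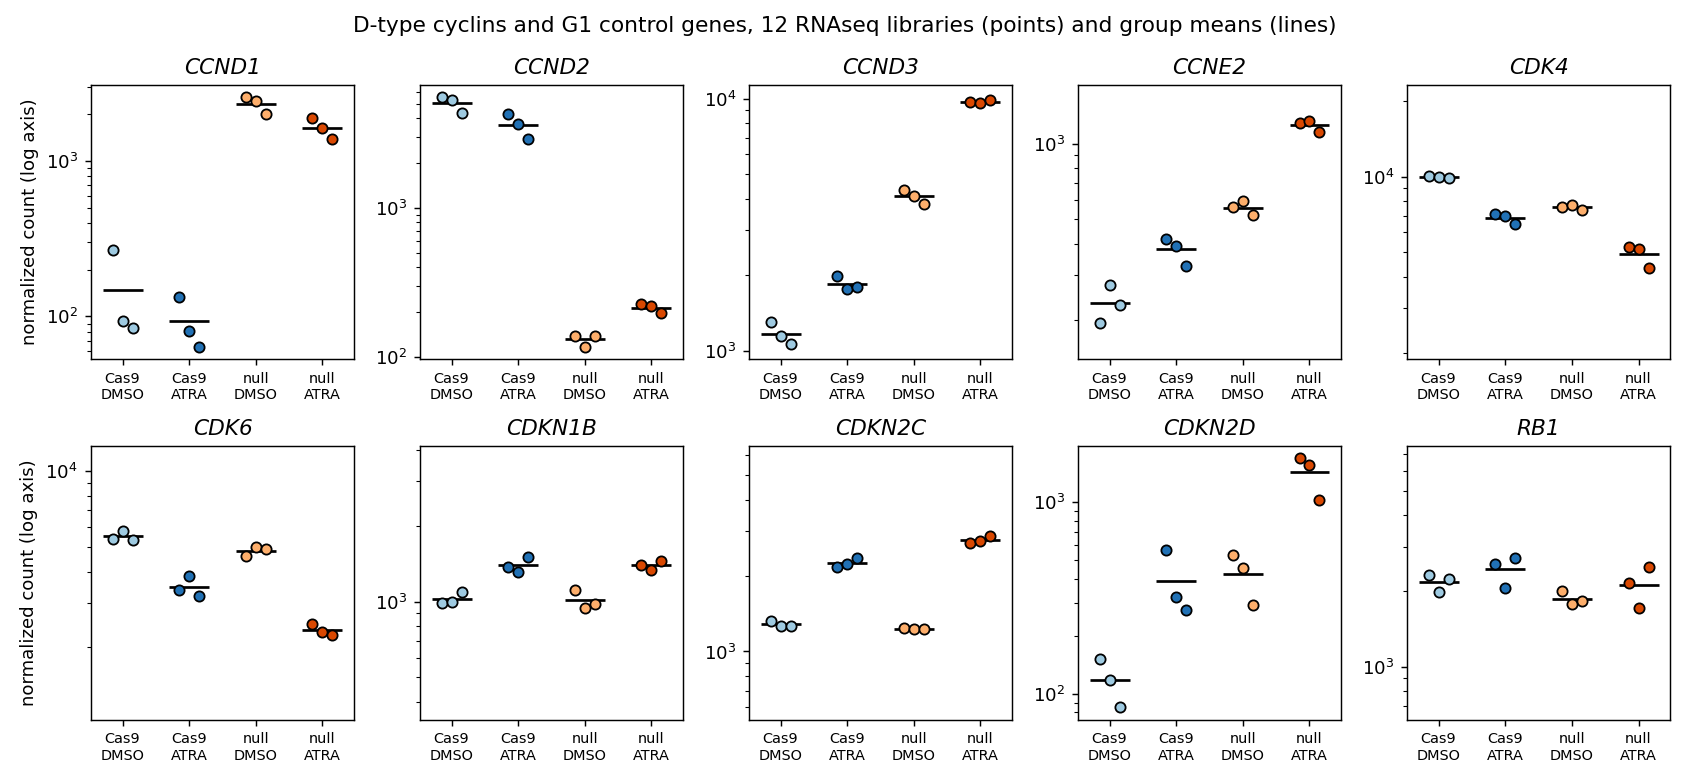
Normalized counts (log axis, its range set for each gene) of the 10 genes in the 12 RNAseq libraries, with 1 point per library and a line at the group mean; null stands for HK3-null. CCND1 and CCND2 have opposite orders between the genotypes, and in CCND3, CCNE2 and CDKN2D the HK3-null ATRA libraries are the highest.

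Levels of different genes were compared only per kilobase of transcript, with the lengths of the MANE Select transcripts (4238 bases for CCND1, 6493 for CCND2 and 2026 for CCND3). In Cas9 control DMSO, CCND2 made up 56.1% ± 2.0 (SD, n = 3) of the 3 D-type cyclins, CCND3 41.5% ± 1.58 and CCND1 2.42% ± 1.41. Without replicate 1, the library that stood apart (a choice made after seeing the data), the mean share of CCND1 was 1.61%. In HK3-null DMSO the shares were 0.786% ± 0.103 for CCND2, 78.0% ± 1.16 for CCND3 and 21.2% ± 1.26 for CCND1. By this measure CCND3 was the most abundant D-type cyclin RNA of HK3-null, and CCND1 held a smaller share there than CCND2 held in Cas9 control. With ATRA the share of CCND3 was 61.3% ± 3.80 in Cas9 control and 92.0% ± 1.19 in HK3-null, and that of CCND1 was 7.40% ± 1.15 in HK3-null. The sum of the 3 genes per kilobase was 1387 ± 172 in Cas9 control DMSO and 1487 ± 169 in Cas9 control ATRA, and 2592 ± 194 and 5217 ± 60.8 in HK3-null. The libraries of both Cas9 control groups overlapped in this sum, and those of HK3-null lay apart from them and from each other.

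These shares depend on the length given to each gene. With the union of all annotated exons in place of the MANE Select transcript (likewise chosen after seeing the data), CCND3 is longer at 5761 bases. CCND2 then made up 73.1% in Cas9 control DMSO, and in HK3-null DMSO CCND1 made up 40.2% and CCND3 58.4%. The order of the 3 genes changed in Cas9 control ATRA, where CCND2 became the first with 56.9%, and held in the other 3 groups. The sums per kilobase became 865 ± 115 in Cas9 control DMSO, 792 ± 113 in Cas9 control ATRA, 1218 ± 106 in HK3-null DMSO and 2058 ± 40 in HK3-null ATRA, so the order of both Cas9 control groups turned.

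**Figure D2:**
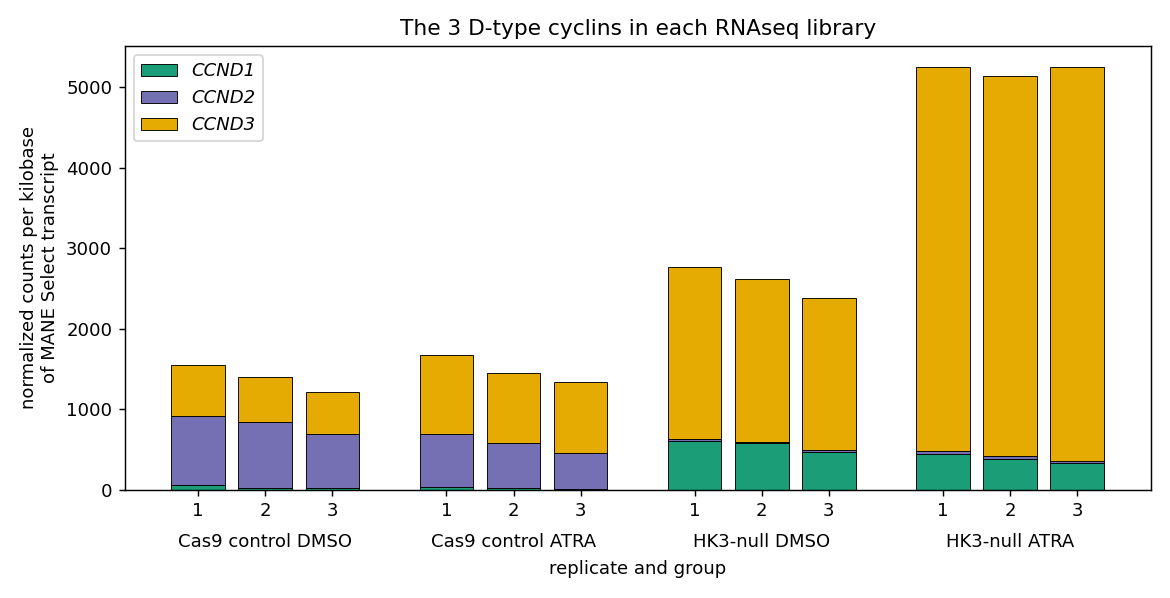
Normalized counts per kilobase of MANE Select transcript of CCND1, CCND2 and CCND3, stacked for each of the 12 RNAseq libraries (replicate number on the x axis, y axis from 0). CCND2 is a large part of every Cas9 control bar and nearly absent from the HK3-null bars, and CCND3 makes the HK3-null ATRA bars the tallest.

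Of the other members, CDKN2D and CCNE2 differed the most between the genotypes. CCNE2, a cyclin E, had 194, 274 and 229 normalized counts in Cas9 control DMSO against 560, 592 and 520 in HK3-null DMSO. CDKN2D had 152, 118 and 85 against 533, 452 and 290. In both genes the genotypes did not overlap in DMSO, and the means were 2.40-fold and 3.59-fold higher in HK3-null. The kinases were lower in HK3-null without overlap, CDK4 1.32-fold in DMSO and 1.39-fold in ATRA, and CDK6 1.14-fold and 1.48-fold. CDKN1B and RB1 overlapped between the genotypes in both treatments. In each treatment 8 of the 10 genes had genotypes that did not overlap, where 63.3% of all genes tested did so in DMSO and 63% in ATRA, and 5 differed by at least 2-fold, where 22% and 24.3% of all genes did. Since the genes were chosen on this contrast, nothing is read from these counts.

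Part of these differences was shared by whole chromosomes. The median log2 difference between HK3-null and Cas9 control in DMSO was 1.10 over the 404 tested genes of chromosome 8, where CCNE2 lies, 0.52 over the 616 genes of chromosome 6 (CCND3) and -0.58 over the 234 genes of chromosome 13 (RB1). On the chromosomes of the other members it lay between -0.01 and 0.08. With the chromosome median subtracted, CCNE2 kept 0.17 of its 1.27 in DMSO and 0.58 of its 1.64 in ATRA, and CCND3 kept 1.30 of 1.82 and 1.83 of 2.40. RB1 changed sign, from -0.22 to 0.36 in DMSO. CCND1, CCND2 and CDKN2D moved by at most 0.12 in either treatment. Copy number was not measured here, and its part in these values was not tested.

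**Figure D3:**
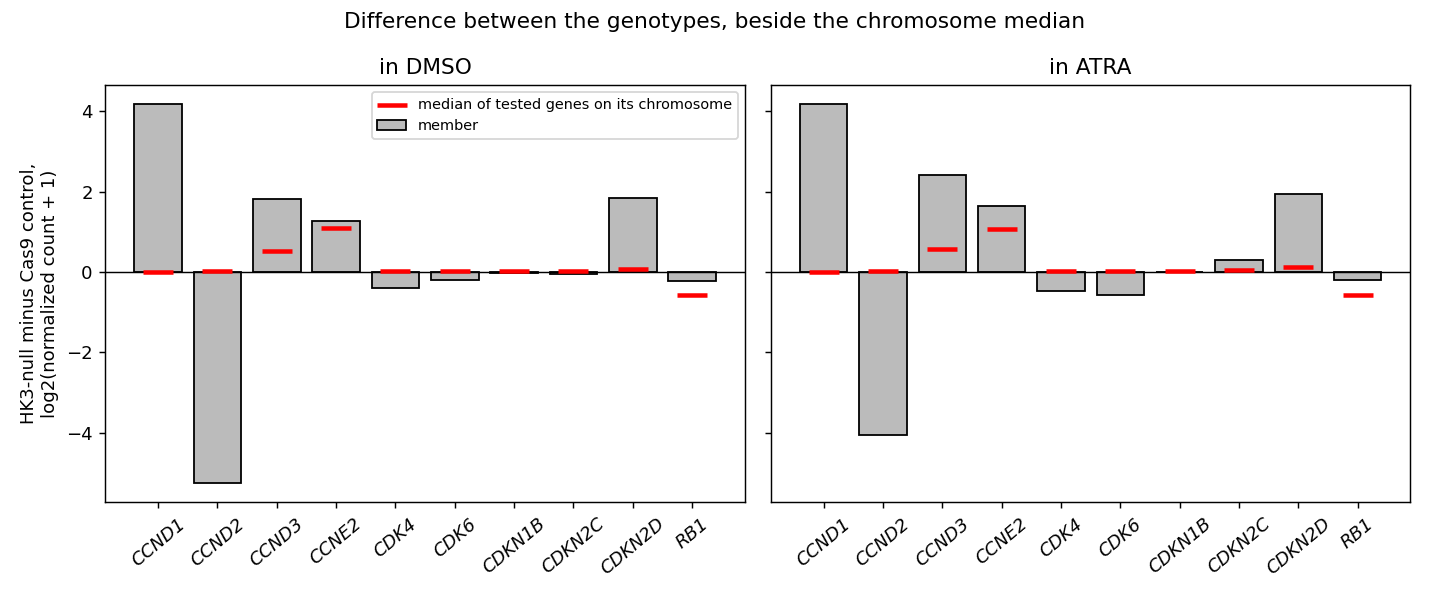
Log2 difference between HK3-null and Cas9 control (bars) of the 10 genes in DMSO and ATRA, with the median of the tested genes on the same chromosome as a red line. The chromosome median is close to the bar of CCNE2 in DMSO, lies beyond that of RB1, and is close to 0 for CCND1 and CCND2.

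The genotype difference at CCND2 and CCND3 was set beside that of genes within 500 kilobases. Near CCND2, 6 of 10 listed genes could be tested, and in DMSO 3 were lower and 1 higher in HK3-null (limma, adjusted p under 0.05 over all genes, which 56.2% of all genes passed), with log2 differences from -1.70 to 0.42. In ATRA 4 were lower and 1 higher, where 61.2% passed. The lowest was TIGAR, singled out after its values were seen, with means of 279 normalized counts in Cas9 control DMSO and 85.3 in HK3-null DMSO. Near CCND3, 10 of 13 tested genes were higher in HK3-null in DMSO and 3 did not pass, with differences from 0.05 to 1.67. In ATRA 10 were higher and 1, FOXP4-AS1, was lower (-0.65, SE 0.25, adjusted p = 0.0406, limma). None of the 7 genes listed near CCND1 passed the filter on low values. CCND2-AS1, an antisense gene at CCND2, had 1 to 5 normalized counts in Cas9 control libraries and 0 in all 6 HK3-null libraries, and whether reads were counted by strand is not given in the sources used here.

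The profile over the 12 libraries that was most like that of CCND2 belonged to PFKM, followed by KLHL25, AES, ABHD17C and MAGED1. Likeness was the root mean square difference of log2(normalized count + 1) after each gene's own mean was subtracted, among 11250 genes whose mean reached 50 in 1 group or more, and it was 0.27 to 0.46 for these 5 genes against a median of 2.37 over all. PFKM, the muscle form of phosphofructokinase, had means of 1105 and 603 in Cas9 control DMSO and ATRA and 27.0 and 40.3 in HK3-null. AES, with means of 4685 and 5020 in Cas9 control DMSO and ATRA, was not lower in ATRA there as CCND2 was. KLHL25 had means of only 4 and 6.33 in HK3-null. For CCND1 the nearest were MICAL3, NIPA1, MUC1, YES1 and CDC42EP3, at 0.36 to 0.46 against a median of 2.17. YES1, a Src family kinase, had means of 74.7 and 41.7 in Cas9 control and 802 and 600 in HK3-null. The genotype difference, on which CCND1 and CCND2 were chosen, is the largest part of both profiles. The nearest genes are therefore mostly those with a genotype difference of like size.

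ATRA moved most of the G1 genes in Cas9 control cells. Of the 10 genes, 5 rose and 3 fell (limma over all 13429 genes, adjusted p under 0.05), where 42.5% of all genes tested passed, 20.8% higher and 21.6% lower. The inhibitors CDKN1B, CDKN2C and CDKN2D and the cyclins CCND3 and CCNE2 rose, and the kinases CDK4 and CDK6 and the cyclin CCND2 fell. The median log2 difference was 0.30 for the 10 genes and 0.00 for all genes. In HK3-null cells 6 rose and 2 fell, where 50.6% of all genes passed, 25% higher and 25.6% lower, and the median was 0.59 against 0.01. Earlier results of these data were known when the 10 genes were chosen. These counts and medians are therefore not read as an excess over all genes. As these are bulk libraries, fewer cells of a type and less RNA per cell cannot be told apart. Log2 differences are on the log2(normalized count + 1) scale throughout, with their standard error (SE).

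Both kinases fell. CDK4 had 10018, 9929 and 9884 normalized counts in Cas9 control DMSO and 7129, 6984 and 6486 in ATRA, and in HK3-null 7575, 7701 and 7403 in DMSO and 5253, 5159 and 4355 in ATRA. ATRA lay below DMSO without overlap in both genotypes, by a log2 difference of -0.54 (SE 0.07, adjusted p = 4.81e-05, limma) in Cas9 control and -0.62 (SE 0.07, adjusted p = 7.63e-06, limma) in HK3-null. CDK6 had 5387, 5816 and 5353 in Cas9 control DMSO and 3379, 3835 and 3190 in ATRA, and in HK3-null 4607, 5013 and 4919 in DMSO and 2473, 2304 and 2246 in ATRA. It too fell without overlap, by -0.67 (SE 0.07, adjusted p = 1.20e-05, limma) in Cas9 control and -1.05 (SE 0.07, adjusted p = 1.29e-07, limma) in HK3-null.

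The inhibitors rose. CDKN2D, whose product is p19, had 152, 118 and 85 normalized counts in Cas9 control DMSO and 566, 321 and 274 in ATRA, and 533, 452 and 290 in HK3-null DMSO and 1704, 1573 and 1031 in ATRA. The groups of each genotype did not overlap, and the log2 rise was 1.67 (SE 0.31, adjusted p = 0.000894, limma) in Cas9 control and 1.77 (SE 0.31, adjusted p = 0.000408, limma) in HK3-null, the largest of the 10 genes in both. Cas9 control ATRA and HK3-null DMSO overlapped in CDKN2D.

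CDKN2C, whose product is p18, had 1323, 1264 and 1267 normalized counts in Cas9 control DMSO and 2155, 2228 and 2355 in ATRA, and 1234, 1223 and 1227 in HK3-null DMSO and 2685, 2754 and 2874 in ATRA. It rose by 0.80 (SE 0.06, adjusted p = 2.27e-07, limma) and by 1.17 (SE 0.06, adjusted p = 4.51e-09, limma). In DMSO the genotypes had means of 1285 in Cas9 control and 1228 in HK3-null, and in ATRA the HK3-null libraries were the highest. CDKN1B, whose product is p27, had 989, 1001 and 1089 in Cas9 control DMSO and 1370, 1312 and 1499 in ATRA, and 1110, 943 and 983 in HK3-null DMSO and 1393, 1330 and 1456 in ATRA. It rose by 0.44 (SE 0.08, adjusted p = 0.000792, limma) in Cas9 control and 0.46 (SE 0.08, adjusted p = 0.000376, limma) in HK3-null, with genotypes that overlapped in each treatment.

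The cyclins did not move together. CCND3 rose by 0.66 (SE 0.08, adjusted p = 2.75e-05, limma) in Cas9 control and by 1.25 (SE 0.08, adjusted p = 5.77e-08, limma) in HK3-null, and CCNE2, with 419, 394 and 328 normalized counts in Cas9 control ATRA and 1209, 1231 and 1108 in HK3-null ATRA, rose by 0.72 (SE 0.13, adjusted p = 0.000712, limma) and 1.08 (SE 0.13, adjusted p = 1.62e-05, limma). CCND2 fell by 0.49 on the log2 scale in Cas9 control (SE 0.14, adjusted p = 0.0119, limma) and rose by 0.71 in HK3-null (SE 0.14, adjusted p = 0.000917, limma). The fall in Cas9 control missed the threshold without replicate 1 of Cas9 control DMSO (-0.43, adjusted p = 0.0514, limma) and without replicate 3 of Cas9 control ATRA (-0.34, adjusted p = 0.0512, limma), and when only the groups of this comparison were fitted (adjusted p = 0.0534, limma). CCND1 had a log2 difference of -0.53 in Cas9 control (SE 0.37, adjusted p = 0.275, limma) and -0.52 in HK3-null (SE 0.37, adjusted p = 0.267, limma). Once the fit held the replicate number as a block, CCND1 passed in both, at adjusted p = 0.0416 and 0.0417 (limma), which made 9 of the 10 genes in each, where 57.4% and 63.2% of all genes passed. In HK3-null it also passed when only its own groups were fitted (adjusted p = 0.0194, limma). In Cas9 control its libraries overlapped, and without replicate 1 of Cas9 control DMSO the difference was 0.00, while in HK3-null the 3 ATRA libraries lay below the 3 DMSO libraries.

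RB1, the substrate of these kinases, had 2314, 1983 and 2233 normalized counts in Cas9 control DMSO and 2558, 2059 and 2716 in ATRA, and 1995, 1780 and 1821 in HK3-null DMSO and 2152, 1714 and 2501 in ATRA. All 4 groups overlapped with their neighbours in order of level, and the response missed the threshold in both genotypes, at 0.16 (SE 0.13, adjusted p = 0.356, limma) and 0.17 (SE 0.13, adjusted p = 0.305, limma).

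**Figure D4:**
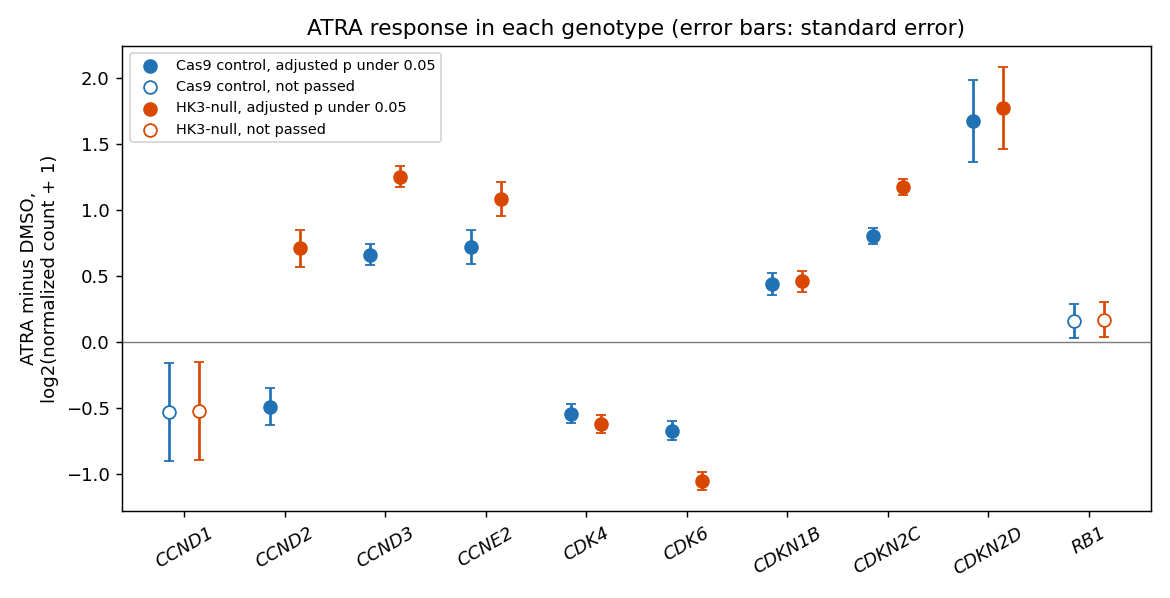
Log2 difference between ATRA and DMSO of the 10 genes in Cas9 control (blue) and HK3-null (orange), with the standard error as bars and filled points where the adjusted p is under 0.05. CCND2 has opposite signs in the genotypes, CCND3, CDKN2C and CDK6 move further in HK3-null, and CDKN1B, CDKN2D and CDK4 have nearly the same values in both.

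Whether a response differed between the genotypes was tested as the interaction of genotype and treatment. It passed for 4 of the 10 genes, 3 higher and 1 lower, where 9.81% of all genes tested passed, 4.71% higher and 5.1% lower (with the replicate number as a block, 4 genes and 23.6% of all). The interaction is the genotype difference in ATRA minus that in DMSO, and the genes were chosen with these differences in view. Nothing is therefore read from the count of 4 beside the share of all genes. The adjusted p-values of single genes below carry the same limit, that of CCND2 above all. CCND2 had the largest difference, with a response 1.20 higher in HK3-null on the log2 scale (SE 0.20, adjusted p = 0.002, limma), a fall in one genotype and a rise in the other. For CCND3 the rise was larger in HK3-null by 0.59 (SE 0.11, adjusted p = 0.00544, limma) and for CDKN2C by 0.37 (SE 0.08, adjusted p = 0.011, limma). The fall of CDK6 was larger in HK3-null, with a difference of -0.38 (SE 0.10, adjusted p = 0.036, limma), and this call was lost in 10 of 18 alternatives, among them 8 of the 12 fits that leave out 1 library (adjusted p from 0.055 to 0.0943, limma), replicate 1 of Cas9 control DMSO included. These 8 were replicates 1 and 2 of Cas9 control ATRA, 1 and 3 of Cas9 control DMSO, and 2 and 3 of both HK3-null groups. With the replicate number as a block, CDK6 passed (adjusted p = 0.00364, limma). CCNE2 missed the threshold at 0.37 (SE 0.18, adjusted p = 0.257, limma), and so did CCND1 at 0.01 (SE 0.52, adjusted p = 0.994, limma).

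Of 33 other genes of G1 and the entry into S phase, all tested, 5 rose and 12 fell with ATRA in Cas9 control, and 8 rose and 12 fell in HK3-null (limma, adjusted p under 0.05 over all genes). Of all genes tested 42.5% and 50.6% passed, and 17 and 20 of the 33 did. Their median log2 difference was -0.18 and -0.05, against 0.00 and 0.01 over all genes. In Cas9 control the largest rises were those of E2F2 (1.31, SE 0.13), an activating E2F factor, and of the repressing factors E2F8 (0.81, SE 0.11) and E2F7 (0.69, SE 0.14). The largest falls were those of CCNA1 (-1.79, SE 0.27), a cyclin A found in leukemic cells, E2F5 (-1.72, SE 0.41), a repressing E2F factor, and CCNH (-0.58, SE 0.06), the partner of CDK7. CCNA1 had only 22, 18 and 16 normalized counts in Cas9 control DMSO and 8, 3 and 4 in Cas9 control ATRA. E2F5 had 34, 28 and 41 in Cas9 control DMSO and 4, 15 and 14 in Cas9 control ATRA. Counts this low leave the size of these falls uncertain.

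In HK3-null, E2F2 and E2F7 both rose by 1.09 (SE 0.13 and 0.14), and E2F5 (-2.50, SE 0.41), CCNA1 (-1.48, SE 0.27) and TFDP2 (-1.14, SE 0.09), a dimer partner of E2F factors, fell the most. E2F5 had 73, 105 and 81 normalized counts in HK3-null DMSO and 22, 12 and 11 in HK3-null ATRA. CDKN1C, which encodes the inhibitor p57, also passed, with 1, 1 and 0 normalized counts in DMSO and 5, 7 and 6 in ATRA, values too low for a fold change. CDKN1A, which encodes p21, did not pass in either genotype. It had 124, 3 and 0 normalized counts in Cas9 control DMSO, where replicate 1 lay far from the others, 2, 3 and 1 in Cas9 control ATRA, and 104 to 158 in the 6 HK3-null libraries. The interaction passed for 3 of the 33 genes (CDK2, CDKN1C and TFDP2), where 9.81% of all genes passed, and for 7 with the replicate number as a block, where 23.6% passed. Neither count exceeds the share over all genes.

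Between the genotypes, 11 of the 33 genes were higher and 9 lower in HK3-null in DMSO, where 56.2% of all genes tested passed, and 13 were higher and 6 lower in ATRA, where 61.2% passed. No chromosome median was subtracted for these genes. In DMSO, E2F3 and CDKN1A (chromosome 6) and E2F5 (chromosome 8) were higher and TFDP1 (chromosome 13) was lower, as the medians of their chromosomes were. CCNA1, on chromosome 13, went the other way. The genotypes overlapped in CDKN1A in DMSO, as replicate 1 of Cas9 control, at 124 normalized counts, lay above the HK3-null libraries (104, 113 and 107). The other Cas9 control DMSO libraries had 3 and 0. CDK7, CCNH and SKP2, all lower, lie on chromosome 5, whose median is not given here. CCNA1, singled out after its values were seen, had a large difference, with 22, 18 and 16 normalized counts in Cas9 control DMSO and 540, 510 and 451 in HK3-null DMSO (log2 difference 4.68, SE 0.27, adjusted p = 1.73e-08, limma). CCNE1, the other cyclin E, had means of 912 and 910 in DMSO and 826 and 830 in ATRA.

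Of 10 proliferation markers at 36 h of ATRA, 2 rose in Cas9 control and 8 did not pass, where 20.8% of all genes rose, and 5 rose in HK3-null and 5 did not pass, where 25% rose (limma, adjusted p under 0.05). With the replicate number as a block, 4 rose and 1 fell in Cas9 control, and 5 rose and 1 fell in HK3-null. MKI67, a marker of cycling cells, rose from a mean of 9108 to 12864 normalized counts in Cas9 control (0.48, SE 0.12, adjusted p = 0.00688, limma) and from 8417 to 14210 in HK3-null (0.75, SE 0.12, adjusted p = 0.000239, limma). For 0 of the 10 markers did the response pass as different between the genotypes (limma, 2 at an unadjusted p under 0.05, 1 with the block). Their part in the changes of the G1 genes was not tested.

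The ATACseq regions were deposited as a selection, since all 8286 differed between the genotypes in ATRA by at least 1.65-fold in their group means. Values in ATRA are therefore given without a test, and the genotypes were tested in DMSO (limma on log2(signal + 1), 6214 regions with a mean signal above 17.1). The selection was made on the same lines, so a difference in DMSO was favoured beforehand. The adjustment covered selected regions only, and a pass is not read as particular to these genes. The signal is the density of fragments in a region after all libraries were reduced to the same number, and its depth is unknown. In DMSO the genotypes did not overlap in all 11 regions at the G1 genes, where 94.8% of all regions did so, and 10 of 11 passed the test, where 86.6% passed. Only 6 passed without replicate 1 or without replicate 2 of HK3-null DMSO. CCNE2, CDK4, CDK6, CDKN1B, CDKN2C and CDKN2D had no region in this selection. The CCND2 regions also list CCND2-AS1, 3 of the CCND3 regions also list BYSL, and the RB1 region also lists LINC00441 and LOC105370200.

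The region at the start of CCND1 (chr11:69640989-69641475, GRCh38) had a signal of 38.6 and 57.5 in Cas9 control DMSO and 122 and 123 in HK3-null DMSO, a log2 difference of 1.36 (SE 0.30, adjusted p = 0.000163, limma). In ATRA it had 41.0 and 26.6 against 104 and 126. HK3-null lay above Cas9 control in both treatments, and ATRA and DMSO overlapped in each genotype.

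All 4 regions at CCND2 were lower in HK3-null. The strongest lies 1306 bases before the start of the MANE Select transcript (chr12:4271911-4273002, GRCh38), inside the annotated span of the CCND2 gene. Its centre is the CCND2 sequence shown above. Its signal was 143.5 and 116 in Cas9 control DMSO against 10.2 and 11.8 in HK3-null DMSO, 11.8-fold lower (log2 difference -3.44, SE 0.34, adjusted p = 8.88e-11, limma). In ATRA it was 108 and 88.7 against 6.29 and 4.32, 18.5-fold lower. The region at the start of CCND2 (chr12:4273530-4274002) had 120 and 129 against 21.6 and 23.6 in DMSO (-2.42, SE 0.31, adjusted p = 2.35e-08, limma), and 110 and 69.8 against 24.1 and 26.4 in ATRA. The other 2, at 4222 bases before and 3324 bases after that start, differed by -1.37 (SE 0.38, adjusted p = 0.00157, limma) and -0.97 (SE 0.30, adjusted p = 0.00352, limma). The latter missed the threshold without replicate 2 of Cas9 control DMSO (adjusted p = 0.0576, limma) or of HK3-null DMSO (adjusted p = 0.0541, limma). Although CCND2 RNA rose with ATRA in HK3-null, the start region alone was higher in both ATRA libraries than in both DMSO libraries there, and the other 3 were lower without overlap, where 22.3% of all regions were higher and 34.2% lower without overlap in that comparison.

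All 5 regions at CCND3 had a higher signal in HK3-null without overlap. The largest difference was at a weak region 25492 bases before the start of the MANE Select transcript (chr6:41967150-41967449, GRCh38), inside the gene in longer transcripts, with a signal of 8.11 and 7.33 in Cas9 control DMSO and 59.3 and 40.7 in HK3-null DMSO (log2 difference 2.52, SE 0.42, adjusted p = 2.11e-06, limma). In ATRA it had 7.0 and 3.44 against 29.3 and 30. It was lower in ATRA than in DMSO without overlap in both genotypes (in Cas9 control 37.9% of all regions were lower and 13.8% higher without overlap), whereas CCND3 RNA rose in both. The other 4 regions differed by 0.58 to 0.88 in DMSO, of which 3 passed, and the region 3632 bases after the start did not (0.58, SE 0.28, adjusted p = 0.0507, limma). It passed without any 1 of the 4 ATRA libraries. Of the 3 that passed, the regions 974 bases after and 28887 bases before the start missed the threshold without any 1 of the 4 DMSO libraries (adjusted p from 0.0586 to 0.322, limma), and the region 2187 bases after it missed it without replicate 1 of HK3-null DMSO (adjusted p = 0.0509, limma). The CCND3 regions are on chromosome 6, where the RNA of all tested genes had a median log2 difference of 0.52, and the part of that difference in the signal was not tested.

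The region at RB1 lies in an intron 863 bases after the start (chr13:48304457-48304771). It had 47.7 and 34.3 in Cas9 control DMSO against 22.6 and 24.4 in HK3-null DMSO (-0.76, SE 0.34, adjusted p = 0.0383, limma; 0.106 to 0.288 without replicate 1 of Cas9 control DMSO or either HK3-null DMSO library), and 63.8 and 42.9 against 16.3 and 17.4 in ATRA. RB1 RNA overlapped between the genotypes in both treatments, and chromosome 13 had a median RNA difference of -0.58.

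**Figure D5:**
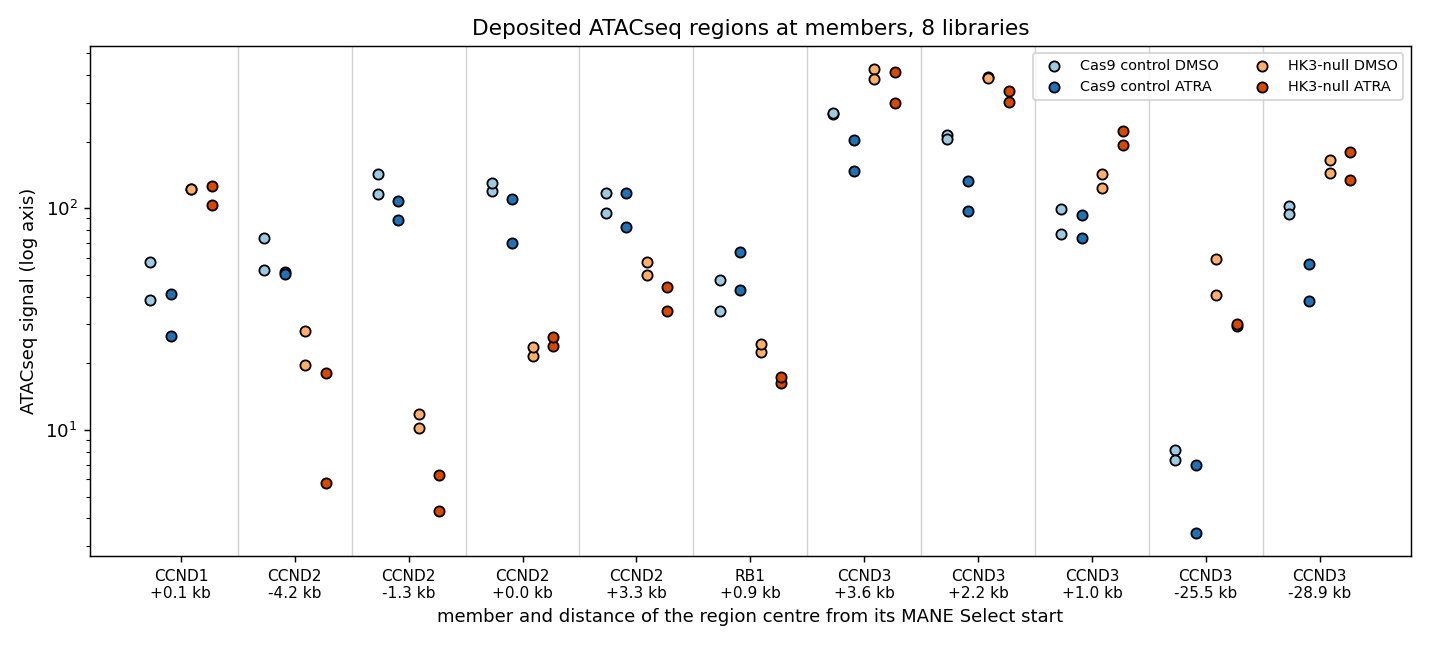
ATACseq signal (log axis) of the 11 deposited regions that list a G1 gene, with 1 point per library and 2 libraries per group, ordered by gene and labelled by the distance of the region centre from the start of the MANE Select transcript. HK3-null is higher at CCND1 and CCND3 and lower at CCND2 and RB1 in every library.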

How the data were processed

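RNA of HL60 cells was sequenced as paired-end directional reads, and per the labels the RNAseq files are on GRCh38. The authors deposited log2 values per gene, which return whole numbers when taken back to the linear scale, with 0 written as log2 of 0.001. They behave as counts scaled between libraries, as DESeq2 (named in the submitters' processing notes, with no version) makes them, although the methods speak of RPKM. No length scaling was visible. RNAseq aligner, counter and annotation were not given in these sources.

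In the ATACseq data the authors deposited a table of signal per region, a tag density from reads aligned with bwa mem, without duplicates, in merged MACS2 regions, with libraries down-sampled to the smallest. ATACseq depth is unknown.

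Log2(normalized count + 1) of the 12 libraries was fitted with 4 group means in limma 3.58.1 (R 4.3.3, trended eBayes), for the 13429 genes whose group mean exceeded 3 on that scale in at least 1 group. Benjamini-Hochberg adjustment covered all of them, and an adjusted p under 0.05 passed. ATACseq used log2(signal + 1) with a mean signal above 17.1 (the 25th percentile). The RNAseq fit was also run on simulated counts with known changes in ATRA, drawn independently for each library and without a genotype difference. That check does not cover the pairing of libraries described next. The comparisons share libraries. Same-numbered RNAseq libraries deviated together from their group means (r of 0.178 to 0.631 in all 18 pairs of libraries, against -0.643 to 0.286 for other numbers), so the numbers pair them, with the pairing read from the data. The main fits do not use this pairing, and the replicate block, which does, is given as an alternative. The labels do not say whether replicates came from separate cultures, and p-values then measure the spread between these libraries.

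Lengths, positions and sequences are from GENCODE v44 and the GRCh38 genome. Genes of the G1 list with the 3 largest passed rises and falls were named, as were the 5 genes nearest in profile to CCND1 and CCND2. Members and lists were chosen with earlier results of these data known. Alternatives covered the pseudocount, the filter, quantile normalization, the replicate block, the variance prior, the samples fitted, the threshold, chromosome medians and leaving out each library.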

Additional observations from a re-analysis of the deposited data

Results flagged for a closer look

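The response to ATRA differed between the genotypes (interaction, limma, adjusted p under 0.05 over all genes) for 4 of the G1 genes, for HK3 and for 3 genes of the wider G1 list. The G1 genes were chosen with their genotype differences in view, so their number is not read as a result. The same limit holds for the adjusted p-values of the 4 G1 genes. All values are the HK3-null response minus the Cas9 control response on the log2 scale. For CCND2 it was 1.20, with adjusted p from 3.4e-05 to 0.00789 over the alternatives, and for CCND3 0.59, with 0.000101 to 0.0178. For CDKN2C it was 0.37, with adjusted p from 0.00136 to 0.0343. For CDK6 it was -0.38, with 0.00364 to 0.0943, and it missed the threshold in 10 of 18 alternatives.

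HK3 had a difference of -1.89 (SE 0.28, adjusted p = 0.00117, limma), since its RNA in DMSO was already higher in the libraries labelled HK3-null. TFDP2 had -0.76 and passed in all 18 alternatives, with 3022, 3160 and 2612 normalized counts in Cas9 control DMSO, 2371, 2382 and 2020 in Cas9 control ATRA, 4296, 4618 and 3913 in HK3-null DMSO and 2013, 2029 and 1774 in HK3-null ATRA. CDK2 had 0.28 and passed in 6 of 18 alternatives, with adjusted p from 0.00454 to 0.125. CDKN1C had 2.32 and lay at 0 to 16 normalized counts in all libraries, and its difference ran from 1.10 to 6.10 with the pseudocount.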

How the results depend on the processing

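Of 1096 values recomputed over 73 results on single genes, regions and shares, 1017 kept their side of the threshold, or stayed within the spread where there was no test, 30 lost a call, 9 gained one and 19 moved by more than the spread. The sign changed in 21 values of tested results, all interactions that missed the threshold with either sign. Leaving out each library gave -0.51 to 0.31 for CCND1, -0.03 to 0.09 for CDKN1B, -0.15 to 0.41 for CDKN2D and -0.12 to 0.16 for RB1, which was -0.05 with quantile normalization. Among the genotype differences, those of RB1 changed sign with the chromosome median subtracted (0.36 in DMSO and in ATRA), and that of CDKN1B in DMSO (-0.02) became 0.02 without Cas9 control DMSO replicate 3 and 0.03 without HK3-null DMSO replicate 2. With a fold change of at least 2 also asked for, 1 of the 10 genes passed for ATRA in Cas9 control, 5 in HK3-null and 1 for the interaction (1399, 2061 and 458 of all genes). Leaving out each library gave 7 to 8 genes for ATRA in Cas9 control, 8 in HK3-null, 3 to 4 for the interaction and 5 with a fold of at least 2 between the genotypes in each treatment. With the replicate block, the interaction passed for 3175 of all genes against 1317, for 7 of the 33 G1 genes and for 1 of the 10 proliferation markers, and ATRA in Cas9 control for 5 of the 10 markers (4 with quantile normalization). The block changed no other call of the 10 genes than those of CCND1.

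For ATACseq, leaving out each library gave 6 to 11 regions, with 6 without HK3-null DMSO replicate 1 or 2, where the lone library is assumed to vary like the other groups. Regions that list the gene alone gave 3. The replicate block, for which ATACseq libraries share only a number (r of 0.0539 between the DMSO groups), gave 7 regions. The 2 libraries per group and the unknown depth limit these tests, and the causes of these changes were not tested.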
